A study of Homo sapiens with 4 samples.

Results

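Laminins and integrins were examined as 38 genes, 12 encoding laminin chains and 26 encoding integrin subunits, among the 25690 rows of a gene count table. They were taken by symbol: every laminin alpha, beta and gamma chain and every integrin alpha and beta subunit, leaving out the integrin-binding proteins ITGB1BP1, ITGB1BP2 and ITGB3BP and the integrin-like gene ITGBL1. RNA had been measured by polyA-selected sequencing in H9, a human embryonic stem cell line, at day 7 of a culture that the series calls non-neural ectoderm. There were 2 libraries of wild-type cells (WT) and 2 whose genotype label reads TFAP2A knockout, although the titles of those 2 name TFAP2C. No treatment is named for either group. Whether replicate libraries stem from different cultures or clones is not stated, so p-values here reflect the spread among these 4 libraries alone, possibly a technical one. With 2 libraries against 2, an exact two-sided permutation test of a single value cannot go below p = 0.333, so tests were read from a model fitted across all genes.

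Laminins are secreted trimers of 1 alpha, 1 beta and 1 gamma chain, which are assembled inside the cell and polymerise into the sheet that underlies the basement membrane of an epithelium. Integrins are membrane receptors, each a pair of 1 alpha and 1 beta subunit, that bind laminin, collagen, fibronectin or other ligands outside the cell and attach to the cytoskeleton inside it. In ectoderm and epidermis, integrins of the ITGA3, ITGA6, ITGB1 and ITGB4 products hold cells on laminin, and LAMA3 and LAMB3 encode chains of a laminin that anchors the epidermis at hemidesmosomes.

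Levels are CPM, counts scaled to a common library size, after adjustment of library sizes by the TMM method, as mean ± SD over 2 libraries, and a change is the knockout-labelled libraries (KO 1 and KO 2) against WT. Genes were tested with edgeR (quasi-likelihood F test), p-values were adjusted by Benjamini-Hochberg across 15643 genes, and a gene passed at 0.05. Library totals ran from 17838204 to 21797850 counts, and the upper limit behind a zero, 3 counts, came to 0.137 to 0.17 CPM per library, for counting error only. TFAP2A itself was at 171 and 198 CPM in WT and at 133 and 121 CPM in the knockout-labelled libraries (log2 fold change -0.54, SE 0.0735, edgeR adjusted p = 0.000125). Gene totals cannot tell whether a deleted exon was read. TFAP2C, the gene that the knockout titles name, was at 27.5 and 30.56 CPM in WT and at 8.89 and 5.78 CPM in the others (log2 fold change -1.99, edgeR adjusted p = 6.66e-06). Directions below are those of the libraries as labelled. All 10 markers of non-neural ectoderm were detected, led by KRT8, KRT19 and CDH1, and 8, TFAP2A and TFAP2C among them, were lower and 0 higher in the knockout-labelled libraries.

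Laminin genes fell almost together, while integrin genes went both ways, as genes did across the whole table. Of the 38 members, 30 had enough counts to test, and 20 of these passed, 13 lower and 7 higher. Across all 15643 genes tested, 44.2% passed, 22.3% lower and 21.9% higher. These shares are the background for each count of calls given for a list. Among laminin chains, 9 of 11 tested were lower, 1 was higher and 1 did not pass, with a median log2 fold change of -0.66. Among integrin subunits, 4 of 19 tested were lower, 6 were higher and 9 did not pass, with a median of 0.10. The median of all genes tested was 0.002. The rises were less stable than the falls. Of the 7 members that were higher, ITGA3, ITGA4, ITGA7, ITGB1 and LAMA2 lost their call in at least 1 alternative processing. Of the 13 that were lower, ITGA2B alone did. None of the 20 members that passed had a WT library within the range of the knockout-labelled libraries. This adds little to the calls, since ITGA1, ITGA8 and ITGB4 did not pass and were separate too. So were ITGA10, ITGB2, ITGB3 and LAMB4, which had too few counts to test. The share of all genes that separate in this way was not counted.

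**Figure D1:**
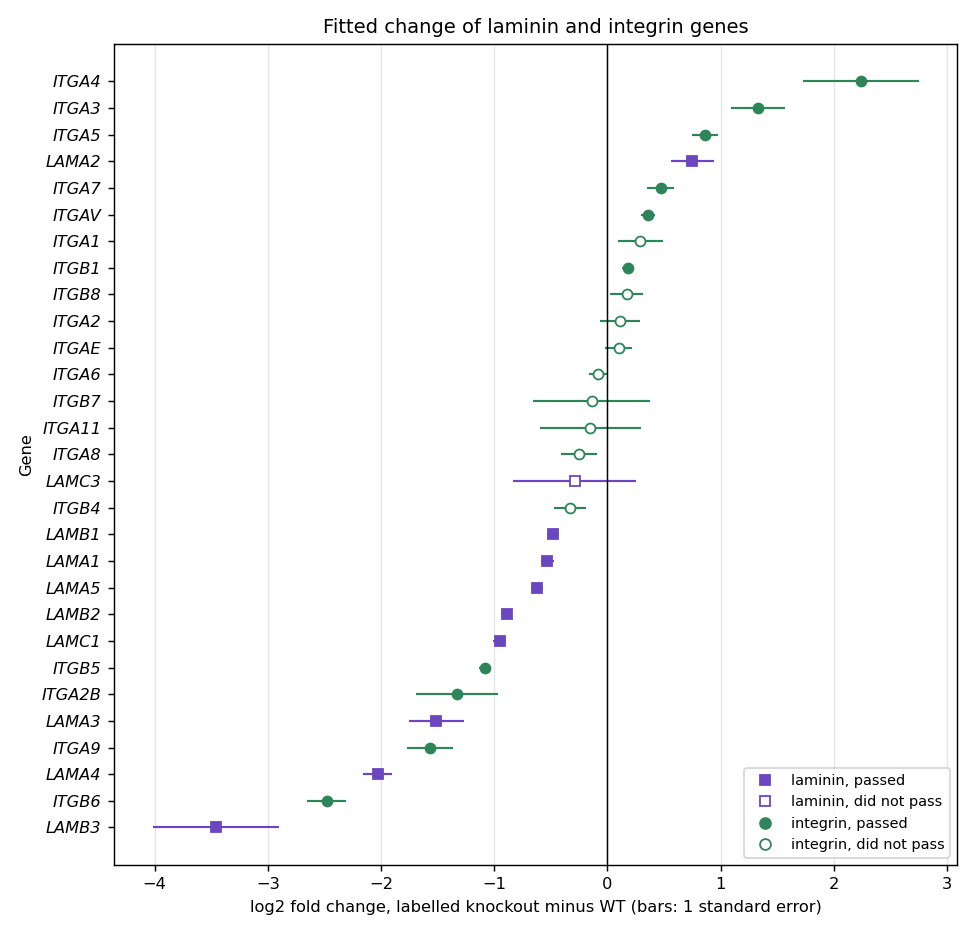
Fitted log2 fold change (libraries labelled knockout minus WT) with 1 standard error for 29 laminin and integrin genes tested, in order of size; squares are laminins, circles integrins, and filled symbols passed at an adjusted p of 0.05. Of the 10 laminins drawn, 8 filled squares lie left of 0 and LAMA2 alone lies right of it among those filled, while filled circles lie on both sides.

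The 5 laminin chains with the highest levels were those of the general basement membrane laminins, and all 5 were lower. LAMC1 (chromosome 1, 182992595 to 183114727, plus strand, hg19), the gamma chain of most laminin trimers, was at 921 and 929 CPM in WT and at 454 and 502 CPM in the knockout-labelled libraries (log2 fold change -0.95, SE 0.0563, edgeR adjusted p = 5.92e-09). LAMB2 was at 289 and 284 CPM against 156.5 and 153.5 CPM (log2 fold change -0.89, SE 0.0495, edgeR adjusted p = 3.22e-09). The WT libraries were thus all above the knockout-labelled libraries for both genes, and LAMB2 varied by only a few CPM within a genotype.

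LAMA5 (chromosome 20, 60884116 to 60942368, minus strand, hg19), the alpha chain of most adult epithelial basement membranes, was at 739.5 and 785 CPM in WT and at 495 and 499 CPM in the knockout-labelled libraries. Its log2 fold change was -0.62 (SE 0.0514, edgeR adjusted p = 2.26e-07). LAMA1, the alpha chain of the early embryo, was at 344 and 377 CPM against 251 and 249 CPM (log2 fold change -0.53, SE 0.0542). LAMB1, the beta chain of the early trimers, was at 508 and 531 CPM against 371 and 376 CPM (log2 fold change -0.48, SE 0.0497). These 3 falls were smaller than those of LAMC1 and LAMB2, a difference in size that was not tested.

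**Figure D2:**
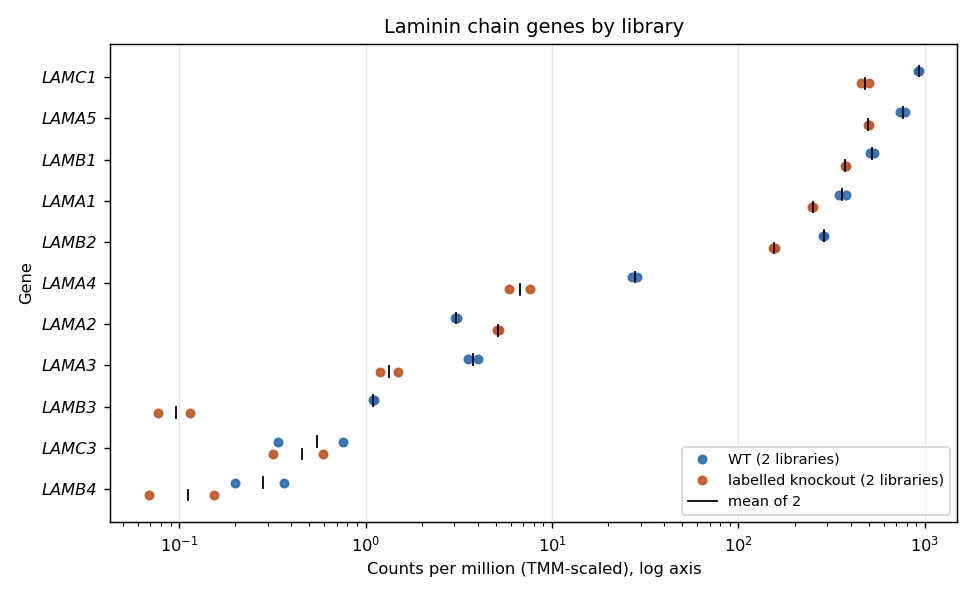
Level of 11 laminin chain genes in each library, in CPM (TMM-scaled) on a log axis; points are single libraries (blue WT, orange labelled knockout) and ticks the mean of 2. The 5 highest genes, from LAMB2 up to LAMC1, each show both orange points left of both blue points, and LAMA2 is the one gene among those that passed with the opposite order.

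The stretches before the start sites of these genes are shown because the genes moved together and because AP-2 factors, the family of TFAP2A, recognise the palindromic letters GCCNNNGGC, or GCC and GGC with 4 bases between them. RefSeq promoter windows (GRCh38.p14, 250 bases before to 50 after a start) were found for 26 of the 38 members. Members without one included LAMA1, LAMC3, ITGA3, ITGA7, ITGA9, ITGAD, ITGAL, ITGAX, ITGB2, ITGB3 and ITGB4. The letters, read on both strands, stood in at least 1 window of 12 of the 26 genes (46.2%), beside 40.5% of 27305 genes with a window. Of the 10 matched members that were lower, 4 held them, as did 2 of 5 that were higher and 6 of 8 that did not pass. Among laminins 3 of 9 held them (LAMA5, LAMB3 and LAMC1), and LAMB1 and LAMB2 did not. The sequences below run 5′ to 3′ on the strand of the gene and end at or before the base next to the start, with the matched letters in capitals.
LAMA5, chr20:62367313-62367562, minus strand: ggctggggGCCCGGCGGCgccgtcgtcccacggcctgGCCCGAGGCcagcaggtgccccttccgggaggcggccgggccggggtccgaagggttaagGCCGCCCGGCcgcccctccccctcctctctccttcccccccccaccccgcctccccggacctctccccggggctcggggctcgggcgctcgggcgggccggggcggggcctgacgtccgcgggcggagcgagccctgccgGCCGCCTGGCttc
LAMC1, chr1:183023186-183023234, plus strand: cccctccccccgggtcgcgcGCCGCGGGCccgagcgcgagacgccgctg
LAMB1, chr7:108003162-108003221, minus strand: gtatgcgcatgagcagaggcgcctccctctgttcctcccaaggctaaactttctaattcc
LAMB2, chr3:49133051-49133110, minus strand: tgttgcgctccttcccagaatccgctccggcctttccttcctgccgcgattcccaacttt
LAMA5 holds 4 matches in this stretch and LAMC1 holds 1. A match is a run of letters and was not tested for binding, and its absence says nothing of more distant sites.

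Of the laminin chains at lower levels, LAMA4, LAMA3 and LAMB3 showed larger falls than LAMC1 and LAMB2, a difference in size that was not tested. LAMA4, the alpha chain typical of vessels, muscle and mesenchyme, fell from 28.6 and 27.0 CPM in WT to 5.86 and 7.65 CPM, 4.10-fold lower (log2 fold change -2.03, SE 0.128, edgeR adjusted p = 1.12e-08). The epidermal chains LAMA3 and LAMB3 were both lower. LAMA3 was at 3.55 and 4.03 CPM against 1.49 and 1.19 CPM (log2 fold change -1.51, SE 0.244). LAMB3 (chromosome 1, 209788218 to 209825674, minus strand, hg19) had 19.5 counts in each WT library and 1.5 and 2.5 counts in the knockout-labelled libraries (log2 fold change -3.46, SE 0.559, edgeR adjusted p = 0.000166). This largest fitted fall of the members rests on 4 counts in the lower group.

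LAMA2, the alpha chain of muscle and peripheral nerve, was the laminin that rose, from 3.08 and 3.01 CPM to 5.17 and 5.04 CPM (log2 fold change 0.75, SE 0.189, edgeR adjusted p = 0.00528). With DESeq2 its adjusted p was 0.0883, and over the other alternatives the adjusted p stayed under 0.05. LAMC3 did not pass, at 0.548 ± 0.293 CPM in WT against 0.455 ± 0.19 CPM, and its libraries overlapped. LAMB4, with 10 counts in WT and 4.5 in the knockout-labelled libraries, was removed by the low-count filter (adjusted p = 0.394 with edgeR without that filter).

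Divided by the length of the longest annotated transcript, levels can be set beside each other. On this scale (CPM per kb), the WT means ran from LAMC1 (117) through LAMB1 (90.1), LAMA5 (66.7), LAMB2 (50.5) and LAMA1 (34.8) to LAMA4 (4.24), and LAMA2, LAMA3, LAMB3, LAMB4 and LAMC3 were below 0.4. No neighbouring pair among the 6 highest named here overlapped between WT libraries. The 12 laminin genes summed to 363 and 374 CPM per kb in WT and to 221 and 227 CPM per kb in the knockout-labelled libraries, 60.9% of the WT mean. Gamma chains stood at 52.0% of WT on this scale, alpha chains at 65.1% and beta chains at 65.4%.

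LAMA5 kept its share of the alpha chains although their sum fell, while minor chains shifted. LAMA5 held 62.9% and 62.5% of the alpha chain counts per kb in WT and 62.8% and 62.9% in the knockout-labelled libraries. LAMA1 held 32.3% and 33.1% in WT and 35.0% and 34.5% in the knockout-labelled libraries. The share of LAMA4 went from 4.24% and 3.75% to 1.30% and 1.68%. LAMA2 went from 0.308% and 0.282% to 0.773% and 0.75%, and LAMA3 from 0.324% and 0.344% to 0.202% and 0.161%. Among beta chains LAMB1 held 63.2% and 64.7% in WT and 70.0% and 70.7% in the knockout-labelled libraries, the rest being nearly all LAMB2. LAMC1 held 96.1% to 97.1% of gamma chain counts per kb in all 4 libraries.

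**Figure D3:**
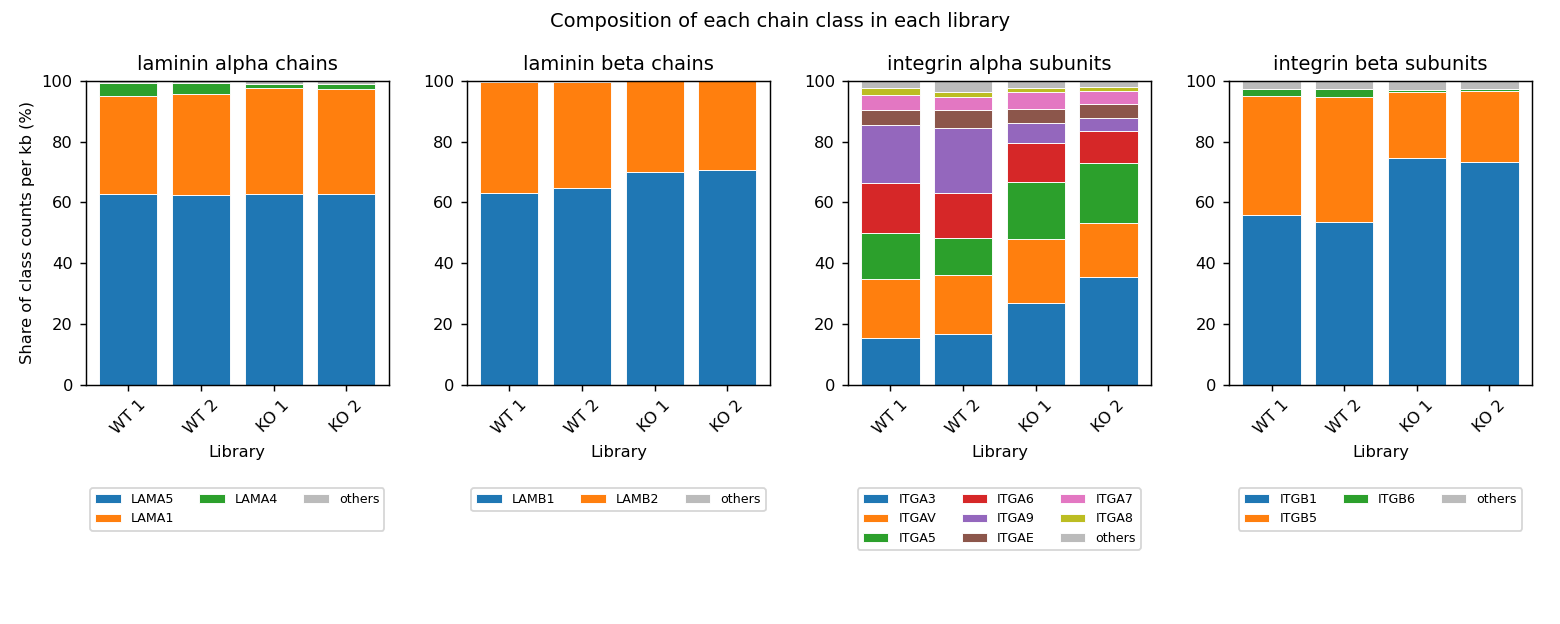
Share of each gene in the counts per kb of its class (percent, stacked to 100), in each of the 4 libraries, for laminin alpha and beta chains and integrin alpha and beta subunits; genes below 2% in every library are pooled as others. LAMA5 fills 62.5% to 62.9% of the alpha chains in every library, whereas the integrin panels change with genotype. The shares of ITGA3 and ITGB1 are larger and those of ITGA9 and ITGB5 smaller in the knockout-labelled libraries, and a larger share need not be a higher level.

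Integrin subunits summed to 183 and 179 CPM per kb in WT and to 179 and 182 CPM per kb in the knockout-labelled libraries, 99.8% of the WT mean. Individual subunits moved in both directions inside this sum. Alpha subunits summed to 65.0 and 63.7 CPM per kb in WT against 79.5 and 85.6, and beta subunits to 118 and 115 against 99.5 and 96.6.

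Among 4 subunits grouped as laminin-binding, with the shared ITGB1 given apart, 2 rose and 0 fell. This is near the 44.2% of all genes tested that passed. ITGA3 (chromosome 17, 48133340 to 48167849, plus strand, hg19), which pairs with ITGB1 to bind laminin in basal epithelial cells, rose from 54.5 and 57.7 CPM to 116.5 and 166 CPM (log2 fold change 1.33, SE 0.237, edgeR adjusted p = 0.036). The SD was 35.0 CPM between KO 1 and KO 2 and 2.27 CPM between the WT libraries (n = 2 each). The adjusted p was 0.107 without WT replicate 1, 0.212 without WT replicate 2 and 0.0839 without the low-count filter. ITGA7, a muscle laminin receptor subunit, was at 13.2 and 11.3 CPM against 18.2 and 15.8 CPM (log2 fold change 0.47, SE 0.123, edgeR adjusted p = 0.00656). This call was lost without WT replicate 2 (adjusted p = 0.0712) and without KO replicate 1 (0.0689).

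The hemidesmosome pair of ITGA6 and ITGB4 did not pass. ITGA6 was at 56.6 ± 4.96 CPM in WT and at 53.7 ± 5.39 CPM in the knockout-labelled libraries, with overlapping libraries. ITGB4 was at 10.7 ± 1.37 CPM against 8.53 ± 0.361 CPM (log2 fold change -0.33, SE 0.143, edgeR adjusted p = 0.0793), and it passed only without WT replicate 2 (adjusted p = 0.0486). ITGB1, the beta subunit that pairs with most alpha subunits, was at 250.4 and 233 CPM in WT and at 281 and 268 CPM in the knockout-labelled libraries, a small difference (log2 fold change 0.18, SE 0.0536, edgeR adjusted p = 0.0123). It was lost when a trend with GC content was removed (log2 fold change 0.05, adjusted p = 0.404), without WT replicate 2 (0.147) and without KO replicate 1 (0.0731).

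RGD-binding integrins attach to fibronectin, vitronectin and latent TGF-beta. Of 7 of their subunits tested, 3 were lower, 2 were higher and 2 did not pass, beside 22.3% lower and 21.9% higher among all genes tested. ITGB6 (chromosome 2, 160956177 to 161056824, minus strand, hg19), an epithelial beta subunit that pairs only with ITGAV, fell from 11.99 and 12.9 CPM to 2.48 and 2.02 CPM, 5.57-fold lower (log2 fold change -2.48, SE 0.174, edgeR adjusted p = 3.70e-08). ITGB5, another partner of ITGAV, fell from 202 and 208 CPM to 94.98 and 99.1 CPM (log2 fold change -1.08, SE 0.0534, edgeR adjusted p = 9.89e-10). Both kept clear gaps between genotypes, and the SD of ITGB5 within a genotype was at most 4.61 CPM.

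ITGAV itself rose, from 88.4 and 87.6 CPM to 118.5 and 108 CPM (log2 fold change 0.36, SE 0.0612, edgeR adjusted p = 0.000229). With the GC trend removed, the log2 fold change of ITGAV was 0.21, and it still passed. ITGA5, the alpha subunit of the classical fibronectin receptor, rose from 49.3 and 38.7 CPM to 75.1 and 84.6 CPM (log2 fold change 0.86, SE 0.114, edgeR adjusted p = 0.000468). The beta subunit ITGB8, at 9.03 ± 1.34 CPM in WT against 10.1 ± 0.333, and ITGA8, at 8.64 ± 1.15 against 7.30 ± 0.573, did not pass. ITGA2B, the platelet alpha subunit, was at 1.68 and 3.46 CPM in WT against 1.10 and 0.894 CPM (log2 fold change -1.33, SE 0.36, edgeR adjusted p = 0.00937). This call was lost with DESeq2 (adjusted p = 0.0579), without WT replicate 2 (0.192) and without KO replicate 2 (0.088). The log2 fold change was -0.72 without WT 2. The other platelet subunit, ITGB3, was not tested, with 8.5 and 6.5 counts.

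**Figure D4:**
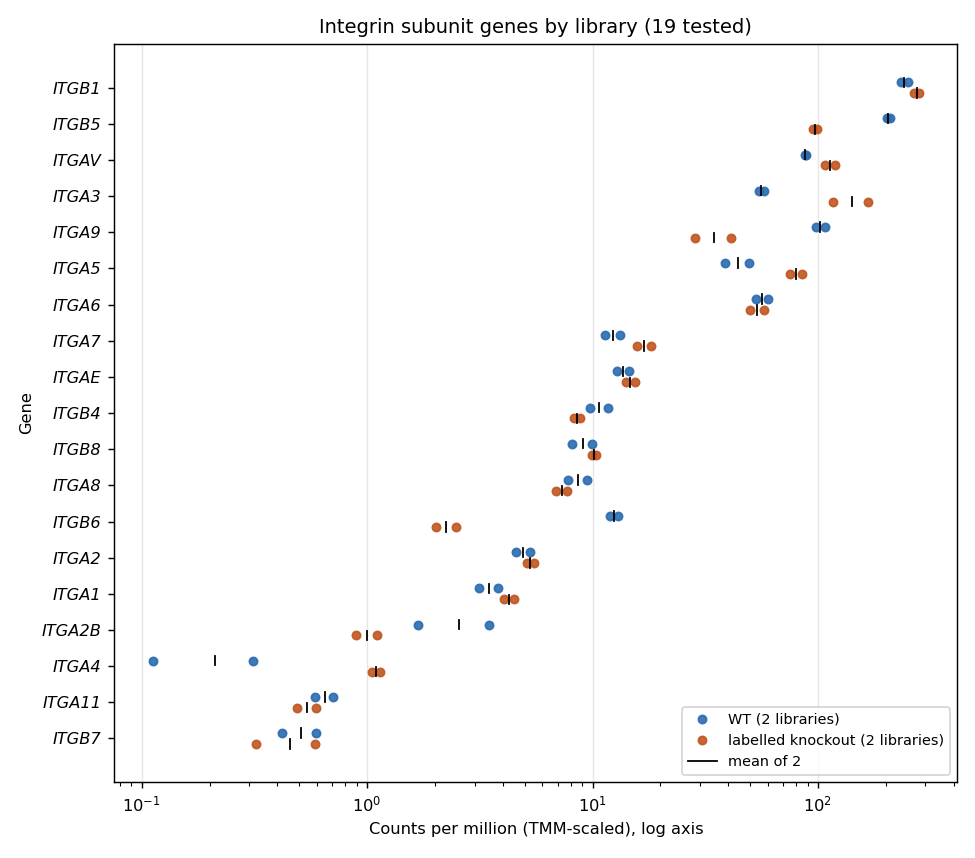
Level of the 19 integrin subunit genes tested in each library, in CPM (TMM-scaled) on a log axis; points are single libraries (blue WT, orange labelled knockout) and ticks the mean of 2. ITGB5, ITGA9 and ITGB6 lie lower and ITGA3, ITGA5 and ITGAV higher in the knockout-labelled libraries, with a wide gap between the 2 orange points of ITGA3.

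ITGA9 (chromosome 3, 37493813 to 37861281, plus strand, hg19), a receptor subunit for tenascin and VCAM1, fell from 97.6 and 107 CPM to 40.9 and 28.5 CPM (log2 fold change -1.57, SE 0.203, edgeR adjusted p = 0.00892). Its share of alpha subunit counts per kb was 19.1% and 21.4% in WT and 6.53% and 4.22% in the knockout-labelled libraries. ITGA3 showed the opposite, with 15.3% and 16.5% in WT and 26.7% and 35.4% in the knockout-labelled libraries. Among beta subunits ITGB1 held 56.0% and 53.5% in WT against 74.7% and 73.3%, and ITGB5 held 39.1% and 41.4% against 21.8% and 23.5%. In both classes the WT libraries were thus separate from the knockout-labelled libraries in the shares of these 4 genes. Shares within a class depend on each other. In mean level, ITGB1 went from 63.9 to 72.6 CPM per kb, a smaller change than that of ITGB5, from 46.9 to 22.2 CPM per kb.

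ITGA4, the related subunit that binds VCAM1 and fibronectin, was near the limit of detection in WT, with 2 and 5.5 counts against 20.5 and 25 (log2 fold change 2.24, SE 0.515, edgeR adjusted p = 0.00274). This rise was lost with DESeq2 (adjusted p = 0.0545) and without WT replicate 1 (0.0505). The log2 fold change was 1.65 without WT 1 and 3.21 without WT 2. ITGB7, a beta partner of ITGA4 and ITGAE, at 0.507 ± 0.124 against 0.455 ± 0.19 CPM, did not pass. Collagen-binding alpha subunits did not pass either: of 3 tested, ITGA2 was at 4.93 ± 0.486 CPM in WT and 5.31 ± 0.28 in the knockout-labelled libraries, and ITGA1 at 3.48 ± 0.464 against 4.27 ± 0.301. ITGA11 was below 1 CPM in every library, and ITGA10 had 9.5 and 4.5 counts and was not tested.

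Leukocyte integrins other than ITGAE were at or near 0. ITGAD and ITGAM had no count in any library, and ITGAL and ITGAX had 1 count each in all. ITGB2, their beta subunit, had 18.5 counts in WT and 5 in the knockout-labelled libraries, too few for the filter used (adjusted p = 0.0229 with edgeR without that filter). ITGAE was at 13.7 ± 1.23 CPM in WT and 14.7 ± 0.948 and did not pass. GSG2, on the other strand and at 23.2 CPM on average, lies inside ITGAE, and PELO, at 22.04 CPM, shares 14317 bases with ITGA1 on the same strand. No source used here says if strand entered the counting, so reads of ITGAE and GSG2 may not be told apart. ITGA1 and PELO share a strand, so strand could not separate reads from a stretch that both transcripts hold. These overlaps are of whole gene spans, and whether exons overlap was not checked.

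The other parts of the basement membrane did not fall together with the laminins. Of 23 partner genes tested there, 11 were lower and 9 higher, with a median log2 fold change of -0.11. Among all genes tested, 22.3% were lower and 21.9% higher. The calcium-binding matrix gene SMOC1 fell from 579 and 632 CPM to 19.1 and 12.1 CPM (log2 fold change -5.29, SE 0.248). TINAGL1 fell from 125.5 and 125.8 CPM to 21.6 and 18.2 CPM. NPNT, which encodes the ITGA8 ligand nephronectin, fell from 41.5 and 43.2 CPM to 10.1 and 13.8 CPM, and COL15A1 from 1.31 and 0.879 CPM to 0.102 and 0.229 CPM. The log2 fold change of COL15A1 was -2.69, and -3.37 without KO 2.

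Several further partners were chosen after their values were seen, because they bind laminin or form the second network of the sheet. HSPG2, which encodes the proteoglycan perlecan, fell from 1733 and 2097 CPM to 658 and 624 CPM. AGRN, which encodes the proteoglycan agrin, rose slightly, from 638 and 632 CPM to 729 and 760.5 CPM (log2 fold change 0.23, SE 0.0501). The nidogens link laminin to collagen IV, and they went opposite ways. NID1 rose from 41.02 and 39.2 CPM to 84.8 and 87.9 CPM (log2 fold change 1.11, SE 0.0659), and NID2 fell from 176.5 and 179 CPM to 103 and 109 CPM (log2 fold change -0.75, SE 0.0536). COL4A1 and COL4A2, whose products share a collagen IV trimer, rose. COL4A1 went from 91.9 and 93.3 CPM to 137 and 157 CPM and COL4A2 from 215 and 221 CPM to 388 and 413 CPM (log2 fold changes 0.67 and 0.88, SE 0.0666 and 0.0521). COL4A5 and COL4A6, of another collagen IV network, were slightly lower. COL4A5 went from 383 and 415 CPM to 359.5 and 363 CPM and COL4A6 from 205 and 235.5 CPM to 193 and 178 CPM (log2 fold changes -0.14 and -0.25). These calls were lost in 8 and 3 of 14 alternatives, among them leaving out WT 2 (adjusted p = 0.338 and 0.131 with edgeR).

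Of 12 genes listed with laminin receptors other than integrins, 7 were lower and 3 higher (median -0.26), beside 22.3% and 21.9% of all genes tested. The list also holds glypicans (GPC genes) and sarcoglycans (SGC genes), cell-surface proteins that are not taken here as laminin receptors in their own right. GPC4, a cell-surface proteoglycan, rose from 2.85 and 1.96 CPM to 26.2 and 25.7 CPM (log2 fold change 3.43, SE 0.156), and SDC2, a syndecan, from 65.4 and 57.8 CPM to 112 and 103 CPM. GPC3, related to GPC4, fell from 3081 and 3076 CPM to 1341 and 1523 CPM, and the sarcoglycan SGCE from 36.2 and 31.8 CPM to 17.9 and 14.5 CPM. BCAM, a LAMA5 receptor chosen after its values were seen, fell from 435 and 434 CPM to 309 and 271 CPM. Among 4 hemidesmosome partners COL17A1 alone passed, at 1.82 and 1.39 CPM in WT against 0.794 and 0.367 CPM. Its log2 fold change was -1.43, and -2.08 without KO 1. Its adjusted p was 0.12 with DESeq2, 0.101 without WT replicate 1 and 0.13 without KO replicate 2.

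Of 17 integrin ligands other than laminin, 8 were lower and 3 higher (median -0.38), beside 22.3% and 21.9% of all genes tested. VCAM1, a ligand of ITGA4 and ITGA9, fell from 14.5 and 11.3 CPM to 1.95 and 1.79 CPM, and POSTN from 82.4 and 77.5 CPM to 13.5 and 15.6 CPM. TNC, the tenascin ligand of ITGA9, was at 180.4 and 222 CPM against 40.05 and 23.2 CPM, with an adjusted p of 0.0373 that rose to 0.0573 with the replicate number as a block, 0.112 when WT 1 was left out and 0.189 when WT 2 was. SPP1, which encodes osteopontin, rose from 2.66 and 2.41 CPM to 12.96 and 15.1 CPM (log2 fold change 2.46, SE 0.17). Fibronectin, FN1, chosen after its values were seen, fell from 415 and 403 CPM to 317 and 312 CPM.

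Inside the cell, activators and focal adhesion proteins tie integrins to actin. Of 33 of their genes tested, 11 were lower, 5 higher and 17 did not pass (median -0.11), beside 44.2% of all genes that passed. TNS3 and TNS1, tensins that bind beta subunit tails, fell from 615 and 607 CPM to 313 and 341 CPM and from 147 and 152 CPM to 67.4 and 78.8 CPM. TGFB1I1 fell from 2.21 and 1.93 CPM to 0.486 and 0.413 CPM, and PARVB rose from 10.2 and 7.63 CPM to 14.9 and 15.2 CPM. The integrin activator FERMT1, chosen after its values were seen, rose from 71.4 and 64.6 CPM to 112 and 116 CPM. Of other activators in the list, also chosen after their values were seen, FERMT2, FERMT3 and TLN1 did not pass. TLN2 was lower (log2 fold change -0.65).

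Of 8 integrin-associated genes outside the rule, 4 were lower and 0 higher (median -0.08), beside 22.3% and 21.9% of all genes tested. The tetraspanin CD9 fell from 46.7 and 52.0 CPM to 16.2 and 13.7 CPM, CD82 from 6.71 and 8.68 CPM to 2.69 and 3.12 CPM, and SLC3A2 from 156.4 and 152 CPM to 102 and 103 CPM. CD81 was also lower, a call lost in 7 of 14 alternatives. Among 6 laminin-related netrins, 2 were lower and 2 higher, which with so few genes is not set apart from those shares. NTN1, a guidance factor, rose from 2.35 and 3.01 CPM to 7.48 and 6.12 CPM and NTNG1 from 2.35 and 2.10 CPM to 3.84 and 4.70 CPM, the latter with an adjusted p of 0.055 with DESeq2. NTNG2 was lower, at 7.09 and 4.13 CPM against 10.1 and 10.2 CPM in WT, as was NTN5, whose adjusted p was 0.0891 with DESeq2 and 0.0778 without WT replicate 2.

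**Figure D5:**
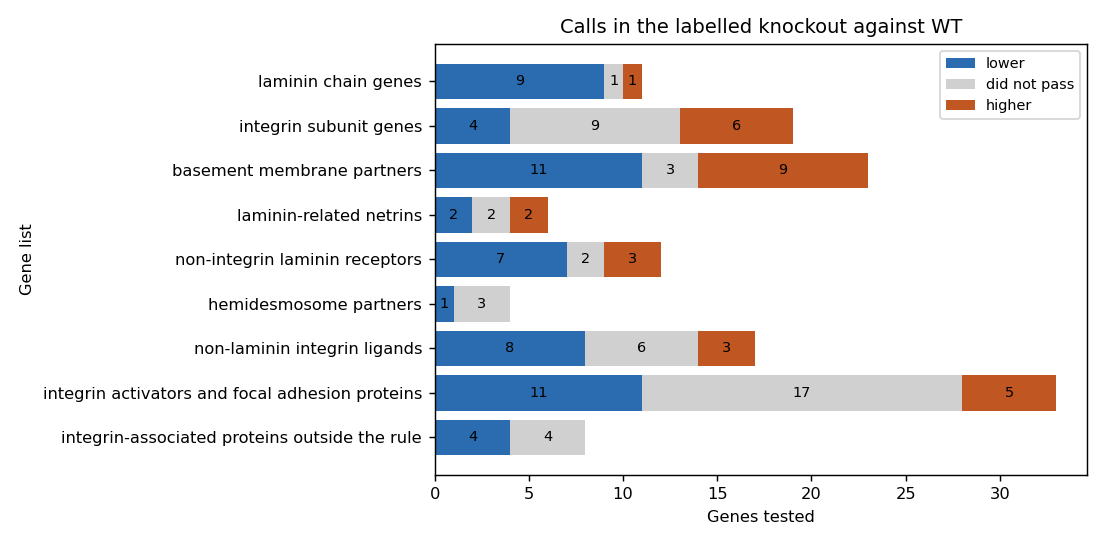
Number of genes tested in each list (bar length), split into lower (blue), did not pass (grey) and higher (orange) in the knockout-labelled libraries against WT. Laminin chains show 9 of 11 lower, whereas basement membrane partners split into 11 lower and 9 higher.

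Markers of other cell types moved in the same libraries, and in bulk RNA fewer cells of a type and less RNA per cell cannot be told apart. Of 10 markers of mesenchyme, POSTN among them, 6 were lower and 1 higher, and they summed to 11800 and 12170 CPM in WT and 9499 and 10900 CPM in the knockout-labelled libraries, with none at 0. Of 4 endothelial markers tested, 3 were lower and 0 higher, and all 10 listed summed to 50.3 to 52.6 CPM in WT and 23.0 to 24.2 CPM in the knockout-labelled libraries. PECAM1 was at 0 in all 4 libraries, and CDH5, which passed, was at 11.9 CPM in WT and 0.464 CPM in the others. Of 8 amnion and trophoblast markers tested, 6 were lower and 1 higher, and the sum went from 2125 to 2295 CPM in WT to 208 to 287 CPM. Muscle markers summed to 77.7 to 81.0 CPM in WT and 59.5 to 64.0 CPM, with 4 of 7 tested lower, 0 higher and MYF5 at 0. Neural crest and Schwann cell markers summed to 391.5 to 417 CPM in WT and 157 to 163 CPM, with 3 of 7 tested lower and 0 higher. Most of this fall was TFAP2B, at 273.9 CPM in WT and 43.1 CPM in the knockout-labelled libraries. ERBB3, at 107.6 and 100.2 CPM, did not pass, and SOX10, FOXD3 and PAX3 were at 0.169, 0.0559 and 0.0563 CPM in WT. The part of these cell types in the laminin and integrin results was not tested.

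Blood markers bear on the leukocyte and platelet subunits directly. PTPRC, the common leukocyte antigen, was at 0 in all libraries, and the summed level of 10 leukocyte markers, 389 to 406 CPM in WT and 454 to 514 CPM in the knockout-labelled libraries, was nearly all LCP1, with 1 of 3 tested higher and 0 lower. Of 10 megakaryocyte and platelet markers, PF4, PPBP, GP9 and GFI1B were at 0 in all libraries, 1 of 4 tested (NFE2) was higher and 0 were lower, and the sum was 6.85 to 7.23 CPM in WT against 13.98 to 15.9 CPM.

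Genes next to a member on the chromosome were compared as a description, taking 10 tested genes on each side. Around LAMB3, 9 of 20 neighbours were higher and 2 lower, with a median log2 fold change of 0.39, opposite to LAMB3 itself. CAMK1G, next to LAMB3 among the genes tested and chosen after its value was seen, was lower (-2.15). Around ITGA4, 10 of 20 were higher and 0 lower, with a median of 0.40, and its part in the rise of ITGA4 was not tested. Around the other 18 members that passed, the medians lay between -0.15 and 0.24. The window mattered: with 5 genes on each side, the median around LAMA1 was -0.68, with 5 of 10 lower and 1 higher, against -0.09 with 10 on each side.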

How the data were processed

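The authors deposited 1 table of estimated counts per gene, in multiples of 0.5, for 4 libraries. TopHat, HOMER and DESeq2, with no version, and hg38 stand in the submitters' processing notes; annotation and counting settings are not stated there. Row positions fit hg19 instead: among 23020 genes matched to GRCh38, 4.32% start within 2000 bp of it, and 26 rows use hg19-style contig names. Positions are therefore printed as hg19. Groups came from the genotype label. Counts were rounded, filtered with filterByExpr and tested on genotype alone with edgeR 4.0.16 (TMM, glmQLFit with robust estimation, glmQLFTest) in R 4.3.3, a procedure tested on simulated counts. Replicates differed by more than sampling noise (chi-square per degree of freedom 4.32 and 4.17). Lengths came from the longest GENCODE v29 transcript of a symbol. The members and lists were chosen with earlier results of these data known. Members are named, except that some genes, though counted in list totals, are not reported here. Of each partner list, up to 4 that passed with the largest change and no overlap between genotypes are named, and others are marked as chosen after their values were seen. Of 191 listed partner and marker genes, 3 were found by an older symbol. Alternatives were DESeq2 1.42.0, limma-voom (limma 3.58.1), 3 other scalings, 2 other filters, unrounded values, removal of a GC trend, a replicate block and leaving out each library.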

Additional observations from a re-analysis of the deposited data

How the results depend on the processing

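The number of members that passed, 20, was 17 to 20 over 14 alternatives, that of laminins, 10, was 9 to 10, and that of integrins, 10, was 7 to 10. Of the 20 members that passed, 14 kept their call in all alternatives that gave an adjusted p, 9 of the 10 laminins among them. The exceptions are given beside ITGA2B, ITGA3, ITGA4, ITGA7, ITGB1 and LAMA2. Leaving out a library gave 5232 to 5834 calls over all genes, and DESeq2 gave 4710 against 6919. Deviations of same-numbered libraries had a correlation of -0.0501 across genes, which cannot show whether those libraries were prepared together. With the replicate number as a block, 6204 genes and 20 members passed. No member that passed changed direction. Among those that did not pass, the sign changed for ITGA2 with the GC trend removed (log2 fold change -0.01), and when a library was left out for ITGA6 (range -0.18 to 0.02, 0.01 among them), ITGB7 (-0.65 to 0.28, 0.04 among them) and LAMC3 (-0.79 to 0.43, 0.13 among them). Without division by length, mean shares (WT first, then knockout-labelled) were 65.85% and 65.4% for LAMA5, 98.1% and 97.6% for LAMC1, 26.0% and 7.364% for ITGA9, 50.3% and 69.8% for ITGB1 and 42.72% and 24.7% for ITGB5, and 14.2% for ITGA3 in WT. With 5 neighbours on each side, the median log2 fold change was 0.21 around LAMB3, 0.72 around ITGA4, -0.68 around LAMA1 and 0.33 around ITGA5, and -0.10 to 0.29 around the other members that passed. Depth limits what can be said of LAMB3, LAMB4, LAMC3, ITGA4, ITGA10, ITGB2, ITGB3 and ITGB7, all with few counts in at least 1 group.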
